A study of Homo sapiens with 12 samples.

Results

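The enzymes of the mitochondrial citric acid (TCA) cycle were followed in Huh7, an established line of human hepatocellular carcinoma cells, treated with Molidustat. The genes described are CS, IDH2, IDH3A, IDH3B, OGDH, SUCLG1, SUCLA2, FH and MDH2, that is 9 of the 60666 genes listed for each library, matched by Ensembl identifier. They were chosen by name as enzymes of the cycle, without the subunits of succinate dehydrogenase, with earlier results of these data known, and the rule itself uses no measured value. Molidustat inhibits the prolyl hydroxylases (PHDs) that mark HIF-α subunits for degradation, and the comparison asks what activating the hypoxia response with this drug did to the transcripts of the cycle. The 4 groups were DMSO 24 h, Molidustat 24 h, DMSO 48 h and Molidustat 48 h (drug at 25 µM), each of 3 replicates, which gives 12 libraries. All groups were the same unmodified cell line, kept in the same medium with 25 mM glucose, so the data describe a single tumour line. The paper calls the replicates biological while the series' record speaks of RNA extractions in triplicate. Each n of 3 and each p-value may therefore cover only the spread between these samples, which may be technical.

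The cycle oxidises acetyl-CoA in the mitochondrial matrix and passes the electrons to the respiratory chain. Citrate synthase (CS) joins acetyl-CoA to oxaloacetate. Isocitrate is oxidised to α-ketoglutarate either by the NAD-linked IDH3 complex, to which IDH3A gives the catalytic and IDH3B a regulatory subunit, or by the NADP-linked IDH2, which can also run in reverse from α-ketoglutarate. OGDH is the first component of the α-ketoglutarate dehydrogenase complex. SUCLG1 is the α subunit of succinyl-CoA synthetase and SUCLA2 its ATP-forming β subunit. Fumarase (FH) hydrates fumarate to malate, and MDH2 oxidises malate back to oxaloacetate. The cycle also meets the hypoxia response through its intermediates, since PHDs consume α-ketoglutarate and release succinate.

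On GRCh38, in GENCODE release 44, all 9 are protein-coding genes. CS (ENSG00000062485) lies at chr12:56271699-56300391, IDH2 (ENSG00000182054) at chr15:90083045-90102477 and IDH3A (ENSG00000166411) at chr15:78131498-78171945. IDH3B (ENSG00000101365) lies at chr20:2658395-2664219, OGDH (ENSG00000105953) at chr7:44606572-44709066 and SUCLG1 (ENSG00000163541) at chr2:84423528-84460045. SUCLA2 (ENSG00000136143) lies at chr13:47745736-48037968, FH (ENSG00000091483) at chr1:241497511-241519799 and MDH2 (ENSG00000146701) at chr7:76048051-76067508. IDH3A, OGDH and MDH2 are on the plus strand and the others on the minus strand. The library kit captures transcripts near their 3′ end, so a gene's level is given as CPM (the count scaled to the TMM-adjusted size of its library) without regard to length, and levels are compared between groups for 1 gene, never between genes. The strand setting of the counting is not given in the sources used here. Opposite-strand exons overlap those of IDH3A (CIB2 and ACSBG1, 372 and 126 counts over the 12 libraries, against 2634 for IDH3A). The 5′ exons of CS are shared with a same-strand readthrough gene, ENSG00000144785, which had 9931 counts against 2165 for CS, so reads of this pair could be split by the counting. Of the processed copies, FHP1 had 47 counts against 1669 for FH.

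The libraries held 1499273 to 9179389 counts on genes, with group medians of 4033489 (DMSO 24 h), 5101950 (Molidustat 24 h), 6856097 (DMSO 48 h) and 4249851 (Molidustat 48 h). DMSO 48 h replicate 2 stood apart from the others. It had the fewest counts, and the counting assigned 50.4% of its reads to no feature (17.1 to 25.6% elsewhere). Where these reads lie was not examined. Its correlation of log2 CPM with the other libraries was 0.707 to 0.782. Log2 fold changes at 48 h are given below with and without it. The label of the line was checked against 9 hepatocyte genes, all of them detected in each library, with a summed level of 9052 to 29439 CPM led by AFP (3908 to 10323 CPM). HNF4A, the transcription factor that marks hepatocytes, was at 1237 CPM in DMSO 48 h replicate 2 and had a median of 196 CPM over the 12 libraries. In that library 7 of the other 8 hepatocyte genes (ALB, AFP, APOA1, TTR, TF, SERPINA1 and FGB) were at their lowest level of the series, ALB for example at 1264 CPM against a median of 2382 CPM. Markers of other cell types were at or near 0: the leukocyte list (PTPRC, CD3E, CD14) summed to at most 10.3 CPM with CD3E at 0 throughout, the endothelial list (PECAM1, CDH5, VWF) to at most 6.45 CPM with VWF at 0, and the fibroblast list (COL1A1, COL1A2, PDGFRB) to at most 8.08 CPM. A level in bulk RNA is a share of the library, so a smaller part of the cells making a transcript and less of it in each cell cannot be told apart.

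Of the 9 genes, IDH2 had the highest ratio of Molidustat to DMSO, with a fold of 1.44 at 24 h and 2.01 at 48 h, while most of the others lay somewhat below DMSO. No member passed edgeR's test, and IDH2 at 48 h passed those of DESeq2 and limma-voom. In the quasi-likelihood fit of edgeR, adjusted over 14274 genes (Benjamini-Hochberg), 0 of the 9 members were called higher and 0 lower at 24 h, against 0.231% of all genes called higher and 0% called lower. At an unadjusted p under 0.05 there were also 0 members at 24 h (3.73% of all genes higher, 1.52% lower). Fitted by edgeR without DMSO 48 h replicate 2, IDH2 alone was higher at this level at 24 h (6.19% of all genes), and 0 members were lower (2.85%). DESeq2 called 0 members at 24 h (0.878% of all genes higher, 0.0917% lower), and so did limma-voom with sample quality weights (0.448% higher, 0% lower). At 48 h edgeR again called 0 members in either direction, against 0.21% of all genes higher and 0.021% lower. At an unadjusted p under 0.05 there were 3 members at 48 h, IDH2 higher (4.53% of all genes) and CS and SUCLG1 lower (8.81%). DESeq2 gave the same 3 (5.79% and 9.69%), while limma-voom gave IDH2 higher (8.5%) and IDH3A lower (6.24%). Without DMSO 48 h replicate 2, edgeR gave IDH2 alone as higher (3.68% of all genes) and 0 members lower (2.92%). DESeq2 and limma-voom each called 1 member higher at 48 h, IDH2, against 1.31% and 1.84% of all genes, and 0 lower, against 1.33% and 0.287%.

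**Figure D1:**
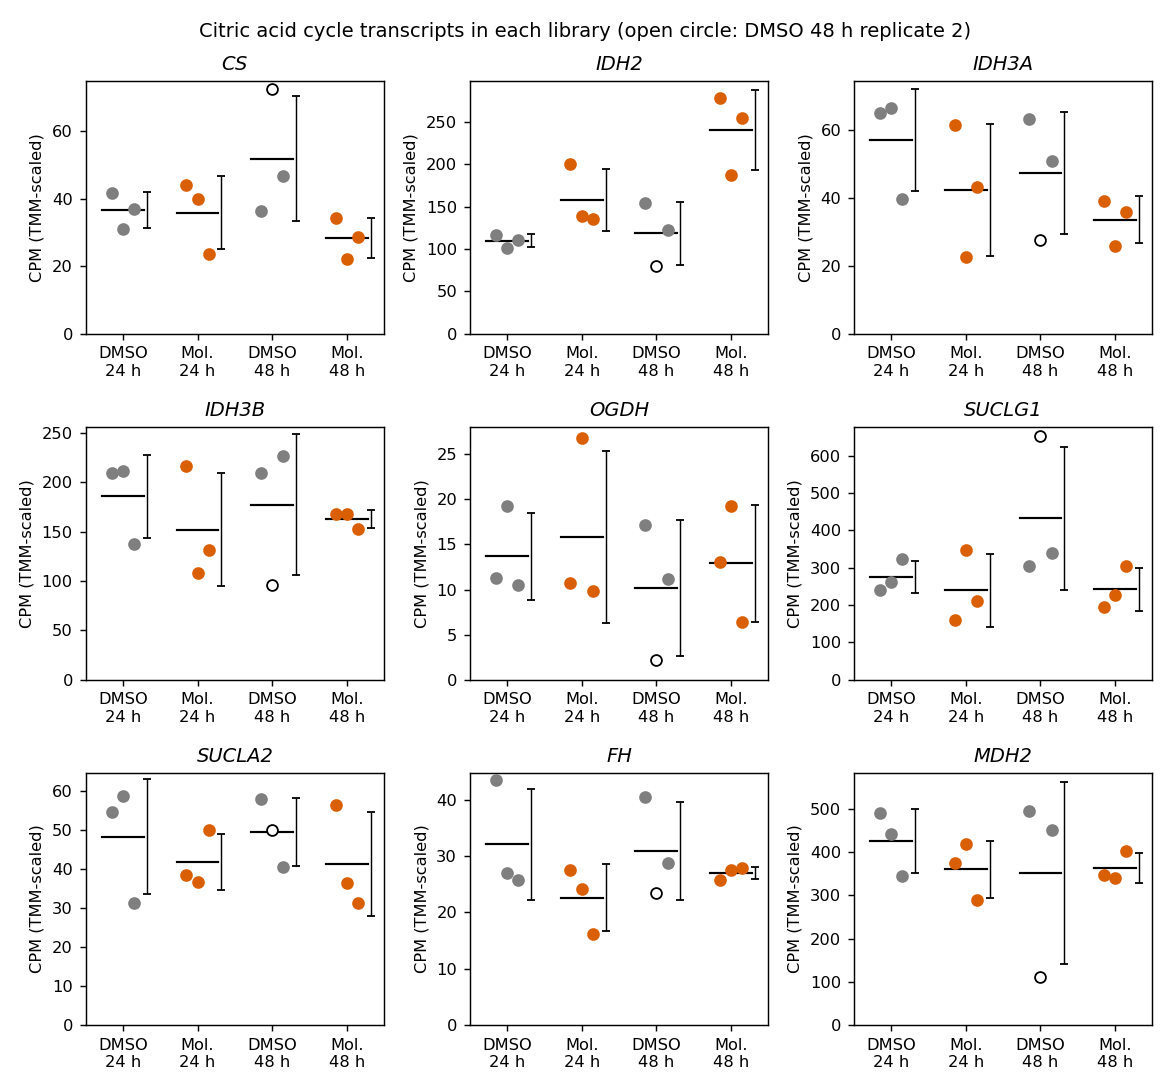
Level of each of the 9 genes (y axis, CPM, from 0) in the 12 libraries, by group (x axis). Each point is 1 library and the open circle is DMSO 48 h replicate 2. IDH2 in Molidustat-treated cells lies above DMSO at both times, and SUCLG1 (652 CPM), CS (72.4 CPM) and MDH2 (112 CPM) in DMSO 48 h replicate 2 lie far from the other libraries of that group.

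The direction of the 9 log2 fold changes was uneven. At 24 h, 7 of 9 were negative (48.5% of all genes), with a median of -0.21 against 0.02 over all genes and a range of -0.51 (FH) to 0.53 (IDH2). At 48 h, 6 of 9 were negative (49.6% of all genes), with a median of -0.21 against 0.01 over all genes and a range of -0.84 (CS) to 1.01 (IDH2). Without DMSO 48 h replicate 2, 8 of 9 were negative at 48 h (49.1% of all genes), IDH2 being the exception, and the median was -0.39. Standard errors of the single estimates at 48 h ran from 0.32 to 0.63. The 95% interval stayed within 1 on the log2 scale on either side of 0 for 2 of 9 members at 24 h and for 4 of 9 at 48 h, and for the remaining members it reached a change of 1 on the log2 scale or more in at least 1 direction. Without DMSO 48 h replicate 2 these counts were 5 of 9 at 24 h and 2 of 9 at 48 h.

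**Figure D2:**
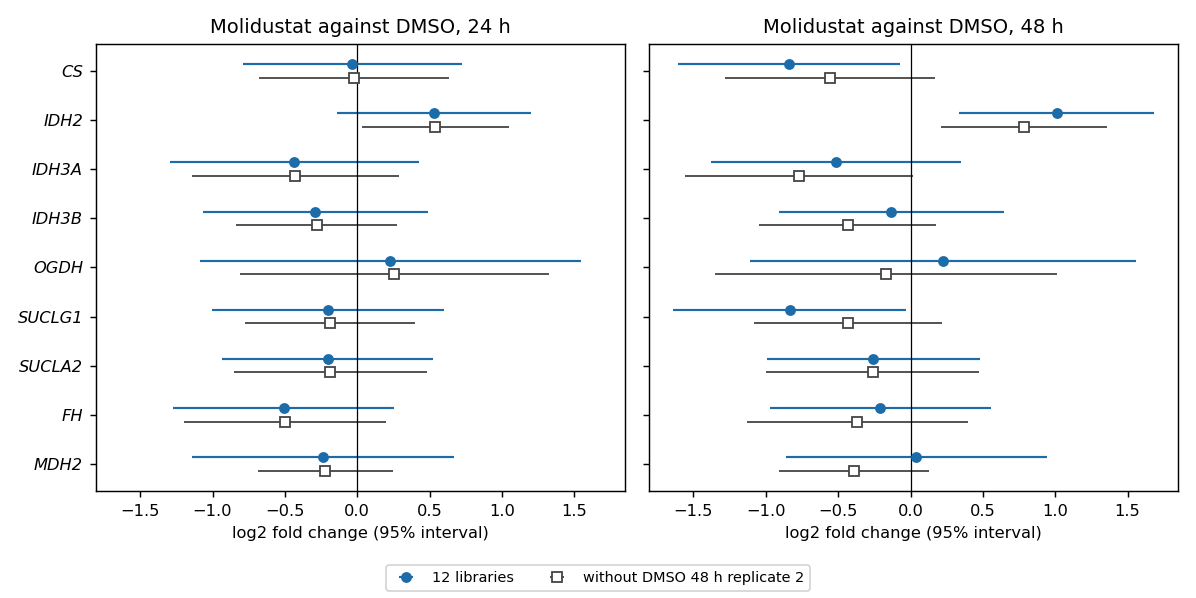
Log2 fold change of Molidustat against DMSO (x axis) for the 9 enzymes, in a panel for 24 h and a panel for 48 h, with 95% intervals that are not adjusted for the number of genes. Filled circles are the fit to 12 libraries and open squares the fit without DMSO 48 h replicate 2. IDH2 lies to the right of 0 in both panels, and at 48 h the squares of the 8 other genes all lie to the left of it.

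IDH2, the NADP-linked isocitrate dehydrogenase, was measured at 117, 101 and 111 CPM in DMSO and at 200.4, 139 and 135 CPM in Molidustat at 24 h. At 48 h its level was 154, 79.8 and 123 CPM in DMSO and 279, 187 and 255 CPM in Molidustat. All Molidustat libraries were above all DMSO libraries of the same time, a pattern shown at 24 h by 7.26% of the genes tested, at 48 h by 9.96% and at both times by 2.2%. The group means were 109.6 ± 7.76 against 158 ± 36.5 CPM at 24 h and 119 ± 37.1 against 240.3 ± 47.6 CPM at 48 h (SD, n = 3). In order of level, Molidustat 48 h was followed by Molidustat 24 h, DMSO 48 h and DMSO 24 h. Neighbouring groups in this order overlapped between Molidustat 48 h and 24 h and between DMSO 48 h and 24 h, and DMSO 48 h replicate 1 (154 CPM) also lay above 2 of the Molidustat 24 h libraries. The overlap between the DMSO groups came from DMSO 48 h replicate 2 (79.8 CPM) alone. With that library left out, IDH2 in DMSO was higher at 48 h than at 24 h without overlap (13.4% of all genes). At 48 h the log2 fold change of IDH2 was 1.01 (SE 0.32, 95% interval 0.33 to 1.68), with an unadjusted p of 0.00613 and an adjusted p of 0.208 by edgeR. DESeq2 gave a like log2 fold change for IDH2 (adjusted p 0.0401) and limma-voom, which gave DMSO 48 h replicate 2 a weight of 0.298, gave 0.87 (adjusted p 0.0422). The call of IDH2 thus depended on the tool. Its value without DMSO 48 h replicate 2, where IDH2 was lowest, was 0.78 (SE 0.27, edgeR adjusted p 0.478), and it stayed between 0.78 and 1.24 when each library was left out in turn, with 0 of 12 such fits calling it. At 24 h the log2 fold change was 0.53 (SE 0.32, edgeR adjusted p 0.999). It was 0.54 (SE 0.24, edgeR unadjusted p 0.0388, adjusted p 0.516) without DMSO 48 h replicate 2, as all groups share the estimate of spread.

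IDH3A and IDH3B, subunits of the NAD-linked enzyme for the same substrate, had fold changes on the other side of 0. IDH3A was at 64.8, 66.3 and 39.7 CPM in DMSO 24 h and at 61.3, 22.5 and 43.1 CPM in Molidustat 24 h, and these groups overlapped. After 48 h IDH3A was at 63.0, 27.7 and 50.9 CPM in DMSO and at 39.1, 25.7 and 35.7 CPM in Molidustat. The overlap at 48 h came from DMSO 48 h replicate 2 alone, where IDH3A rested on 26 counts. The log2 fold change of IDH3A was -0.43 (SE 0.41) at 24 h and -0.51 (SE 0.41, edgeR adjusted p 0.656) at 48 h, or -0.77 (SE 0.37, adjusted p 0.765) at 48 h without that library. With each library left out in turn the value lay between -0.80 and -0.13 at 24 h and between -0.77 and -0.26 at 48 h. IDH3B had means of 186 ± 41.9 and 152 ± 56.9 CPM in DMSO and Molidustat at 24 h, and of 177 ± 71.3 and 163 ± 8.80 CPM at 48 h (n = 3, SD). The spread of IDH3B in DMSO 48 h was again that of replicate 2, at 95.8 CPM beside 209 and 227 CPM, and its log2 fold change at 48 h was -0.13 (SE 0.37) with it and -0.44 (SE 0.29, edgeR adjusted p 0.901) without it.

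Because both counts come from the same library, the ratio of IDH2 to IDH3A counts is free of the scaling between libraries. It was chosen after the values were seen and is given without a test. The ratio was 1.80, 1.53 and 2.80 in DMSO 24 h and 3.27, 6.21 and 3.14 in Molidustat 24 h. In the 48 h libraries it was 2.44, 2.88 and 2.41 in DMSO and 7.13, 7.27 and 7.15 in Molidustat. The DMSO and Molidustat libraries did not overlap at either time, and here DMSO 48 h replicate 2 lay beside its group. The mean log2 ratio was higher in Molidustat by 1.02 at 24 h and by 1.48 at 48 h. The ratio of IDH3A to IDH3B counts, 2 subunits of 1 complex, overlapped at both times and was lower by 0.18 and 0.41 on the log2 scale. It lay between 0.153 and 0.327 in all 12 libraries.

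**Figure D3:**
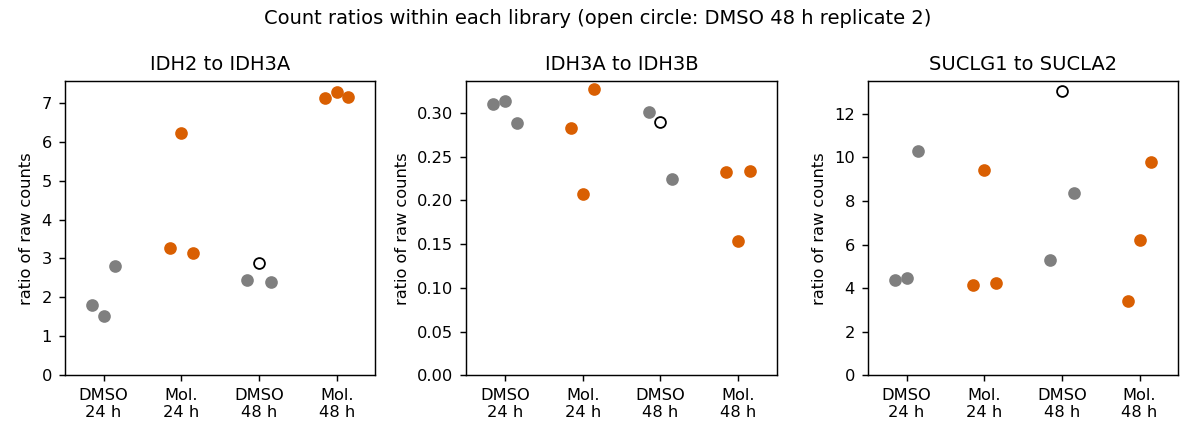
Ratio of raw counts of 2 genes within each library (y axis, from 0), by group (x axis), for IDH2 to IDH3A, IDH3A to IDH3B and SUCLG1 to SUCLA2. Each point is 1 library and the open circle is DMSO 48 h replicate 2. For IDH2 to IDH3A the 3 Molidustat 48 h libraries sit at 7.13 to 7.27, above the 2.41 to 2.88 of DMSO 48 h, while the groups of the other ratios overlap.

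The windows that RefSeq (GRCh38.p14) places around the starts of the isocitrate dehydrogenases IDH2 and IDH3A are shown because their log2 fold changes had opposite signs, with the core of the hypoxia response element in capitals. The core was searched as ACGTG or GCGTG on both strands, so that it also appears as CACGT or CACGC, in the 300 bases from 250 before to 50 after the start. The IDH2 window (chr15:90100572-90100871, minus strand) holds 1 match and the IDH3A window (chr15:78149112-78149411, plus strand) holds 2. Both windows lie inside the genes as GENCODE draws them, downstream of other starts whose sequence was not used here.
IDH2: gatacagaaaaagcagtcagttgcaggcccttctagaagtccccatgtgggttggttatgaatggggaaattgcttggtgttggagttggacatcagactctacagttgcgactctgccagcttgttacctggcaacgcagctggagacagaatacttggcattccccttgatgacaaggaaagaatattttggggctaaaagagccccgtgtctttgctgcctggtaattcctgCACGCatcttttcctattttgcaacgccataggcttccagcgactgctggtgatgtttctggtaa
IDH3A: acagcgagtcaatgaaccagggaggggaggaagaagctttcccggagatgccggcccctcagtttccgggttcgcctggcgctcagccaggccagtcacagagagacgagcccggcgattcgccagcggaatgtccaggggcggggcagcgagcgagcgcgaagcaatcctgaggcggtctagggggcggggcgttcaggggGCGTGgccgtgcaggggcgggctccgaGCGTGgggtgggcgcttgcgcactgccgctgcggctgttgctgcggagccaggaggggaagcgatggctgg
In all, 8 of the 9 members had a window and 5 of these held a match (IDH2, IDH3A, IDH3B, SUCLG1 and FH), against 48.4% of 35116 windows of the same length. OGDH had no window. A match in these letters does not show that a factor binds there.

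CS, the entry enzyme of the cycle, was at 41.8, 31.2 and 37.0 CPM in DMSO and at 44.1, 40.1 and 23.7 CPM in Molidustat at 24 h, with overlapping groups. CS at 48 h was at 36.5, 72.4 and 46.8 CPM in DMSO and at 34.4, 22.3 and 28.6 CPM in Molidustat. All 3 DMSO libraries of 48 h were above the Molidustat ones (8.02% of all genes were lower in this way), the closest pair being 36.5 and 34.4 CPM. The log2 fold change of CS at 48 h was -0.84 (SE 0.36, 95% interval -1.61 to -0.07, edgeR adjusted p 0.327). The level of CS was highest in DMSO 48 h replicate 2, and without that library the log2 fold change was -0.56 (SE 0.34, adjusted p 0.87). At 24 h it was -0.03 (SE 0.36).

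SUCLG1, the α subunit shared by both forms of succinyl-CoA synthetase, overlapped between the groups at 24 h. It was at 240.2, 262 and 323 CPM in DMSO and at 159, 347 and 211 CPM in Molidustat at 24 h. SUCLG1 at 48 h was at 305, 652 and 339 CPM in DMSO and at 194, 226 and 305 CPM in Molidustat. The 48 h groups were separated only by the narrow step between DMSO replicate 1 (305.4 CPM) and Molidustat replicate 3 (304.8 CPM), and the 652 CPM of DMSO 48 h replicate 2 was the highest SUCLG1 level in the series. The log2 fold change at 48 h was -0.83 (SE 0.38, edgeR adjusted p 0.355) with that library and -0.43 (SE 0.31, adjusted p 0.913) without it. At 24 h it was -0.20 (SE 0.38). SUCLA2, the β subunit that forms ATP, was at 48.2 ± 14.7 against 41.7 ± 7.22 CPM at 24 h and 49.5 ± 8.70 against 41.4 ± 13.3 CPM at 48 h (n = 3, SD). For SUCLA2 the log2 fold changes were -0.21 (SE 0.34) at 24 h and -0.26 (SE 0.35, 95% interval -0.99 to 0.48) at 48 h, the latter being -0.26 (SE 0.35) also without DMSO 48 h replicate 2. Over all libraries left out in turn, the 48 h value of SUCLA2 lay between -0.55 and -0.09. The ratio of SUCLG1 to SUCLA2 counts ran from 3.43 to 13.0 over the 12 libraries and overlapped between DMSO and Molidustat at both times.

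OGDH, which commits α-ketoglutarate to succinyl-CoA, was the member with the fewest counts. It was at 11.3, 19.3 and 10.5 CPM in DMSO and at 10.8, 26.8 and 9.81 CPM in Molidustat at 24 h. OGDH at 48 h was at 17.2, 2.13 and 11.2 CPM in DMSO, the 2.13 CPM of replicate 2 being 2 counts, and at 13.0, 19.3 and 6.39 CPM in Molidustat. Groups overlapped at both times, and the log2 fold changes had the widest errors of the 9, at 0.23 (SE 0.62) for 24 h and 0.22 (SE 0.63) for 48 h. Without DMSO 48 h replicate 2 the 48 h value was -0.17 (SE 0.56), and without Molidustat 48 h replicate 2 it was -0.19 (SE 0.70). The sign of OGDH at 48 h thus turned when either library was left out.

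FH had the lowest log2 fold change of the 9 at 24 h, -0.51 (SE 0.36, edgeR adjusted p 0.999), with 43.4, 27.0 and 25.8 CPM in DMSO and 27.6, 24.2 and 16.2 CPM in Molidustat. These groups overlapped through a single Molidustat library at 27.6 CPM. At 48 h FH was at 30.8 ± 8.68 CPM in DMSO and 27.0 ± 1.05 CPM in Molidustat (SD, n = 3), a log2 fold change of -0.21 (SE 0.36), or -0.37 (SE 0.36) without DMSO 48 h replicate 2. MDH2, which closes the cycle, was at 489.9, 441 and 344 CPM in DMSO and at 376, 417 and 289 CPM in Molidustat at 24 h. MDH2 at 48 h was at 494, 112 and 449.8 CPM in DMSO and at 348, 339.7 and 402 CPM in Molidustat. The 112 CPM of DMSO 48 h replicate 2 was the lowest MDH2 level in the series. With that library the log2 fold change at 48 h was 0.04 (SE 0.42), and without it -0.39 (SE 0.25, edgeR adjusted p 0.879), with both remaining DMSO libraries above the 3 Molidustat ones.

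Leaving out DMSO 48 h replicate 2 thus changed how many members were apart at 48 h. Across all 12 libraries, 2 of 9 (CS and SUCLG1) lay lower in every Molidustat library than in every DMSO library, against 8.02% of all genes. Without it, 6 of 9 did (CS, IDH3A, IDH3B, SUCLG1, FH and MDH2), against 15.4% of all genes on the same 5 libraries, and IDH2 lay higher as before (13.7% of all genes). Without that library edgeR called 0 of the 9 at 48 h (0.315% of all genes higher, 0.0328% lower), with a smallest adjusted p of 0.478, for IDH2. At 24 h, 0 of 9 lay lower in this way (5.02% of all genes).

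Between 24 h and 48 h no member passed edgeR's test, with or without the drug. In Molidustat-treated cells IDH2 had the highest value, a log2 fold change of 0.60 (SE 0.32) at 48 h against 24 h, and its libraries of the 2 times overlapped (135 to 200.4 and 187 to 279 CPM). In DMSO the highest value with all libraries was that of SUCLG1, 0.65 (SE 0.38), which was 0.25 (SE 0.31) without replicate 2, where IDH2 was highest at 0.36 (SE 0.27). For DMSO over time edgeR called 0 members, against 0% of all genes higher and 0.00701% lower. For Molidustat over time it called 0, against 0% in each direction. The difference between the effects at 48 h and at 24 h, tested as an interaction, was likewise called for 0 members and 0% of all genes. Its largest size was that of CS, -0.81 (SE 0.51, edgeR adjusted p 0.831), or -0.54 (SE 0.47) without DMSO 48 h replicate 2. In these 3 contrasts 0 members had an unadjusted edgeR p under 0.05, against 6.76% of all genes higher and 1.38% lower over time in DMSO, 2.39% and 2.19% over time in Molidustat, and 1.18% and 5.6% in the interaction. DESeq2 called 0 members in them, against 0.246% of all genes higher and 0.0562% lower over time in DMSO, 0.0391% and 0.0245% over time in Molidustat, and 0.00354% and 0.0106% in the interaction. So did limma-voom, against 0% and 0.014%, 0% and 0.00701%, and 0% and 0% in the same order. At an unadjusted p under 0.05, IDH2 was higher over time in Molidustat with DESeq2 (2.53% of all genes) and limma-voom (4.28%). Leaving out DMSO 48 h replicate 2, edgeR also gave IDH2 at this level (unadjusted p 0.0218, 4.38% of all genes). Over time in DMSO, 4 of 9 members had a positive log2 fold change with all libraries (51.6% of all genes). Without DMSO 48 h replicate 2 all 9 did (52.4% of all genes), from 0.03 to 0.36, and 5 of 9 did in Molidustat (49.9%). These time contrasts share libraries with the Molidustat contrasts and are not independent of them.

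The summed level of the 9 genes lay between 909 and 1377 CPM. It was 1272, 1217 and 1060 in DMSO 24 h and 1134, 1163 and 909 in Molidustat 24 h. The 48 h sums were 1377, 1115 and 1317 in DMSO and 1157, 1052 and 1244 in Molidustat. The groups overlapped at 24 h, and at 48 h they overlapped through DMSO 48 h replicate 2 alone, the other DMSO sums lying above all 3 of Molidustat. This sum is led by the genes with many counts and took up 0.0698 to 0.148% of the counts on genes.

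Across libraries the members varied in different ways. As a description over 12 libraries, which share treatment, time and depth differences, the closest pair by Pearson correlation of log2 CPM was IDH3A with IDH3B, at 0.81, and 0.80 over the 11 libraries without DMSO 48 h replicate 2. OGDH and MDH2 correlated at 0.78 over 12 libraries, but over 11 the gene most like OGDH was SUCLA2 at 0.27, and the library left out is that in which both genes were lowest. FH and MDH2 correlated at 0.83 over 11 libraries. The highest correlation of IDH2 with another member was 0.37, with MDH2, over 12 libraries and -0.07, with FH, over 11. Outside the members, the tested genes whose log2 CPM was most like the mean of the 9 over 12 libraries were CHCHD3 (0.964), BRAT1 (0.945), SDHAF2 (0.942), SCAMP3 (0.936) and MYBL2 (0.928). Over 11 libraries they were GBA3 (0.944), CHCHD3 (0.943), DDB1 (0.923), BRAT1 (0.923) and SCAMP3 (0.905). CHCHD3 encodes a protein of the mitochondrial inner membrane and SDHAF2 an assembly factor of succinate dehydrogenase.

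**Figure D4:**
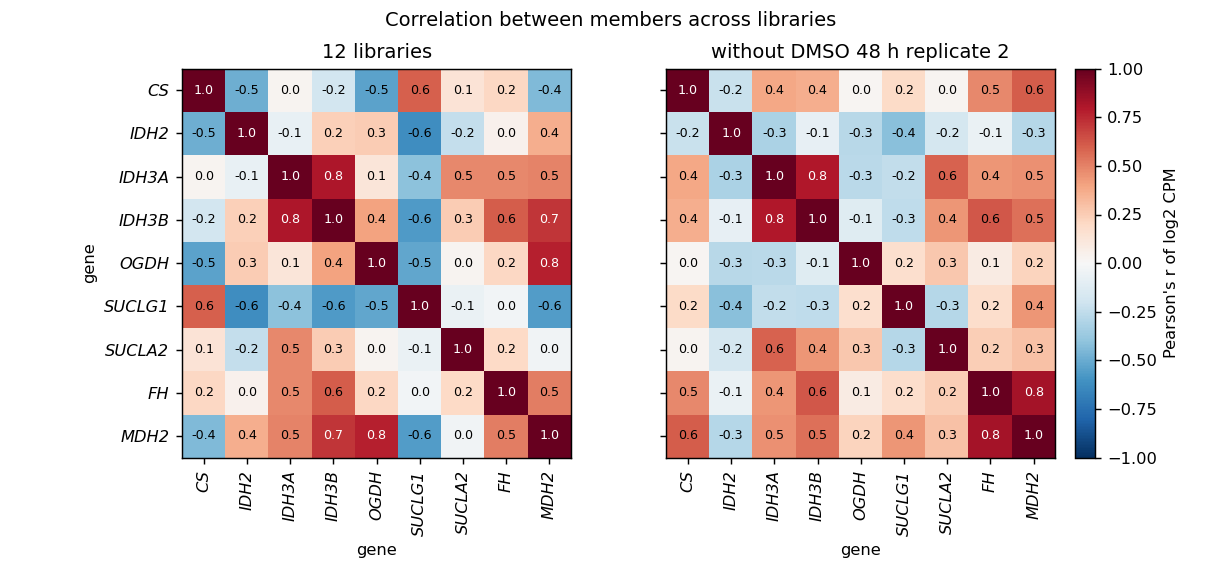
Pearson correlation of log2 CPM (prior count 2) between the 9 genes, over 12 libraries and over the 11 without DMSO 48 h replicate 2, with the coefficient in each cell. IDH3A and IDH3B stay at about 0.8 in both panels, and beside the diagonal the row of IDH2 holds no positive value in the panel of 11 libraries.

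The genes around the 9 members were read from a list of 39, of which 34 passed the filter on low counts and 5 did not. At 24 h edgeR called 1 of the 34 higher (0.231% of all genes) and 0 lower (0%), with 23 negative log2 fold changes (48.5% of all genes) and a median of -0.12 against 0.02 over all genes. At 48 h it called 0 (0.21% higher and 0.021% lower of all genes), with 15 negative (49.6%) and a median of 0.11 against 0.01, or 18 negative (49.1%) and a median of -0.03 without DMSO 48 h replicate 2. At 48 h 2 of the 34 were higher and 2 lower at an unadjusted p under 0.05 (4.53% and 8.81% of all genes). DESeq2 called 0 at 48 h (1.31% higher, 1.33% lower) and limma-voom called 2 higher, PDK1 and PCK2 (1.84%). Among enzymes of the cycle outside the members, IDH3G, DLST, DLD, SUCLG2 and SDHA to SDHD were tested, and edgeR called 0 of these 8 at either time, with 0 at an unadjusted p under 0.05 and 0 by DESeq2 or limma-voom. Among these, SDHB, the iron-sulfur subunit of succinate dehydrogenase, had -0.55 (SE 0.36) at 24 h and -0.14 (SE 0.36) at 48 h, or -0.43 (SE 0.28) at 48 h without DMSO 48 h replicate 2. The NADP-linked cytosolic enzyme IDH1, the counterpart of IDH2, had -0.27 (SE 0.33) at 24 h and -0.04 (SE 0.32) at 48 h, or -0.34 (SE 0.21) at 48 h without that library.

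At the branches of the cycle, PCK2, the mitochondrial enzyme that turns oxaloacetate into phosphoenolpyruvate, had a log2 fold change of 1.32 (SE 0.45, edgeR adjusted p 0.233) at 48 h, or 1.40 (SE 0.49, adjusted p 0.478) without DMSO 48 h replicate 2. It was at 11.5, 11.7 and 7.13 CPM in DMSO 48 h and at 20.7, 19.3 and 34.0 CPM in Molidustat 48 h, without overlap. ME2, the mitochondrial malic enzyme, had -1.53 (SE 0.63) at 48 h, which rested on 170.3 CPM in DMSO 48 h replicate 2 and was -0.05 without it. The mitochondrial pyruvate carrier subunit MPC1 had -0.80 (SE 0.34, edgeR adjusted p 0.872) at 24 h and 0.28 (SE 0.34) at 48 h, the latter being 0.03 (SE 0.29) without that library.

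The call at 24 h was PDK1, a kinase that switches off pyruvate dehydrogenase and so limits the entry of pyruvate, with a log2 fold change of 3.60 (SE 0.68, edgeR adjusted p 0.0339), and 1.64 (SE 0.63, adjusted p 0.271) at 48 h, or 2.47 (SE 0.56, adjusted p 0.0698) at 48 h without DMSO 48 h replicate 2. Among other settings, the 24 h call of PDK1 was lost with RLE factors and when any of 5 libraries was left out (DMSO 24 h replicate 1 or 2, Molidustat 24 h replicate 1 or 2, Molidustat 48 h replicate 2), and PDK1 could not be fitted with at least 10 counts required in every library. Its relative PDK3 had 2.33 (SE 0.58, edgeR adjusted p 0.179) at 24 h, was called there by DESeq2 (adjusted p 0.0166), by limma-voom (0.0127) and by edgeR without DMSO 48 h replicate 2 (0.0318), and had 0.57 (SE 0.56) at 48 h, or 1.03 (SE 0.54) without that library.

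**Figure D5:**
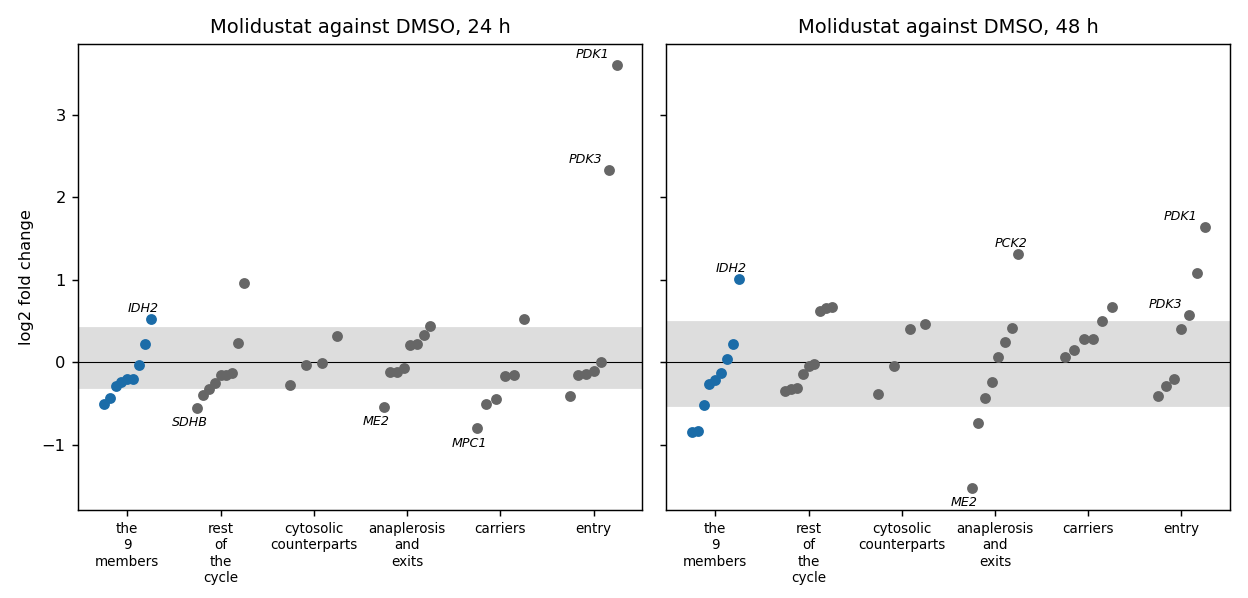
Log2 fold change of Molidustat against DMSO (y axis) at 24 h and 48 h for the 9 members (blue) and for the 34 tested genes of the surrounding pathway (grey), by role (x axis). Each point is 1 gene and the grey band spans the quartiles of all 14274 genes tested. PDK1 at 24 h (3.60) is the only point called by edgeR.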

How the data were processed

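RNA of 12 Huh7 samples was measured. The authors used a QIAseq UPX 3′ kit, aligned reads to GRCh38 (STAR 2.7.9a) and counted them per gene (HTSeq 0.11.2). The submitters' processing notes also name bcl2fastq 2.17.1.14, cutadapt 1.9.1 and DESeq2 1.26.0. The deposited values are whole-number counts without normalization, 1499273 to 9179389 per library on genes. The annotation release, strand setting and use of molecular identifiers are not given in the sources used here, so copies made by PCR may be among the counts. Reads on no feature (17.1 to 50.4%) and 4 other summary lines were left out of library sizes and tests. The line for low alignment quality repeats that for multiple alignments in every library.

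Genes were named from GENCODE 44, filtered with filterByExpr (minimum count 10, minimum total 15; 14274 of 28430 detected genes kept), scaled by TMM and fitted in R 4.3.3 with edgeR 4.0.16 (quasi-likelihood, 4 groups, all 12 libraries). Adjustment over all genes tested was that of Benjamini and Hochberg, and a gene was called at an adjusted p under 0.05. Standard errors were derived from each F statistic. Alternatives used DESeq2 1.42.0, limma 3.58.1 (voom), other scalings and filters, each time alone, the replicate number as a block and each library left out. The fits were tested on simulated data with 200 changed genes. Replicates differed by more than sampling noise. The members and lists were chosen with earlier results of these data known. All members were named, and of the other pathway genes those called and, in each contrast, the 2 with the smallest p in each direction. IDH1 was given outside this rule, as the cytosolic counterpart of IDH2. Some genes under this rule are not reported here. Likeness used log2 CPM with a prior count of 2. Figures were drawn with matplotlib 3.10.9.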

Additional observations from a re-analysis of the deposited data

How the results depend on the processing

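Over 20 settings or fewer for each member and contrast, including each library left out, 0 members were called in any contrast except IDH2 at 48 h, which 2 settings called, so that the number of members called higher at 48 h was 0 with edgeR, 1 with DESeq2 and 1 with limma-voom. Members lower in every Molidustat library ranged from 0 to 3 at 24 h and from 2 to 6 at 48 h when a library was left out. At 24 h they numbered 3 without DMSO 24 h replicate 3 (11.1% of all genes on the same libraries), 2 without Molidustat 24 h replicate 1 (10.5%) and 1 without Molidustat 24 h replicate 2 (10%). At 48 h they numbered 6 without DMSO 48 h replicate 2 (15.4%) and 3 without Molidustat 48 h replicate 1 (CS, SUCLG1 and SUCLA2, 13.5%). Of the other pathway genes called higher at 24 h (1 with edgeR, PDK1) there were 2 with DESeq2, limma-voom or no filter on low counts, and 0 with RLE factors, with at least 10 counts in every library or with the replicate block. Leaving out a library gave 0 to 2: 0 without DMSO 24 h replicate 1, Molidustat 24 h replicates 1 or 2 or Molidustat 48 h replicate 2, and 2 (PDK1 and PDK3) without DMSO 48 h replicate 2. Without DMSO 24 h replicate 2 the 1 call was PDK3 in place of PDK1. At 48 h limma-voom called 2 of them higher and the fit with no filter 1 higher and 1 lower (ME2). The causes were not tested.

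With the replicate number as a block the members' calls were unchanged at 0. Correlations of same-numbered samples' deviations were -0.05 to 0.12, so the numbers were not taken as pairs, and no sample pairing was used. The block turned the interaction of IDH3A to 0.0775 and MDH2 over time in Molidustat to -0.00317.

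Other turns of direction were all in values that were not called. With at least 10 counts in every library, CS at 24 h was 0.00120, SUCLG1 and MDH2 over time in Molidustat were -0.000559 and -0.00338, and OGDH could not be fitted. With limma-voom, OGDH and MDH2 at 48 h were -0.42 and -0.21, the interaction of IDH3B was -0.12, and over time in DMSO IDH3B was 0.15, OGDH 0.00437 and SUCLA2 -0.0371. With total counts, which moved the median log2 fold change of all genes at 48 h from 0.01 to 0.13, the interactions of IDH3A, OGDH and SUCLA2 were 0.0465, 0.0693 and 0.16, and SUCLA2 over time was -0.15 in DMSO and 0.00960 in Molidustat. OGDH's interaction was 0.0318 with DESeq2 and 0.0133 with RLE factors. With no filter, SUCLG1 and MDH2 over time in Molidustat were -0.0174 and -0.0162. Each time fitted alone gives no interaction or time contrast.

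Leaving out each library in turn turned the direction of these log2 fold changes, given as their lowest and highest values. At 24 h CS -0.20 to 0.18, OGDH -0.41 to 0.54, SUCLG1 -0.57 to 0.0199. At 48 h FH -0.37 to 0.0413, IDH3B -0.44 to 0.0800, MDH2 -0.39 to 0.35, OGDH -0.19 to 0.74, SDHB -0.43 to 0.0995. In the interaction IDH3A -0.41 to 0.27, IDH3B -0.16 to 0.48, MDH2 -0.17 to 0.59, OGDH -0.42 to 0.61, SUCLA2 -0.34 to 0.18. Over time in DMSO FH -0.31 to 0.23, IDH2 -0.13 to 0.36, IDH3A -0.52 to 0.0335, IDH3B -0.30 to 0.26, MDH2 -0.60 to 0.18, OGDH -0.86 to 0.0916, SUCLA2 -0.21 to 0.18. Over time in Molidustat IDH3A -0.65 to 0.0122, IDH3B -0.12 to 0.41, MDH2 -0.14 to 0.11, OGDH -0.73 to 0.29, SUCLA2 -0.33 to 0.14, SUCLG1 -0.23 to 0.36.

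OGDH had the fewest counts (2 to 221 a library), and FH had 22 to 298.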
